A study of Mus musculus with 3 samples.

Results

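Induced regulatory T cells (iTreg) were set against T helper 2 (Th2) cells made from the same kind of naive mouse CD4 T cell. On a 2-colour Agilent array with 60-base probes, the Cy5 channel held RNA of 1 culture and the Cy3 channel held RNA of naive cells. The iTreg and Th2 arrays are 2 of the 3 arrays of the series, and the third held a Th9 culture. A gene's difference is the log2 (Cy5/Cy3) of the iTreg array minus that of the Th2 array. It was taken for genes whose probe was well above background in both channels of both arrays. Of 19751 genes with a named probe, 10538 met this rule and are called measured. A further 444 genes had a naive channel at background on at least 1 of these arrays, and for them the Cy5 channels were compared directly. For 1335 genes only 1 of the Cy5 channels was above background, which gives a bound, and 7434 genes were not compared.

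Splenic naive CD4 T cells of C57BL/6 mice, 6 to 8 weeks of age, were sorted magnetically by surface markers. All cultures were activated for 3 days with antibodies against CD3e (on the plate) and CD28, each at 10 µg/ml. The iTreg medium held mouse IL-2 at 0.4 ng/ml, human TGF-beta 1 at 5 ng/ml, anti-IFN-gamma at 5 µg/ml and anti-IL-4 at 5 µg/ml. The Th9 medium held IL-2 at 0.2 ng/ml, IL-4 at 1 ng/ml, TGF-beta 1 at 2 ng/ml and anti-IFN-gamma at 5 µg/ml. The Th2 medium held IL-2 at 1 ng/ml, mouse IL-4 at 5 ng/ml and anti-IFN-gamma at 2 µg/ml, with no TGF-beta 1. The iTreg and Th2 media thus differed in TGF-beta 1, in IL-4 or its blockade, in the IL-2 dose and in the dose of anti-IFN-gamma. What each of these did cannot be told apart. A culture activated in the absence of added polarising cytokines was not analysed here, and the labels do not say whether cells were pooled from several mice or whether the naive RNA was 1 extract.

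In T cells TGF-beta signals through SMAD proteins and, during activation, induces Foxp3, the transcription factor that defines regulatory T cells. IL-4 signals through STAT6, raises GATA3 and opens the locus that holds the Th2 cytokine genes Il4, Il5 and Il13. IL-2 signals through STAT5 in both kinds of cell, supporting Foxp3 in one and cytokine expression in the other.

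Each culture had 1 array, so no test between cultures was possible and none was made. Genes are counted as higher or lower at a difference of at least 2-fold, and ± is the scanner software's error combined over both arrays (n = 1 array each). On the iTreg and Th2 arrays 51.0% and 50.5% of 43020 gene spots were well above background in Cy5, and no spot was saturated. The median combined error of a difference was 0.31 log2 units, and the median SD over the spots of 195 replicated probes was 0.05. The naive channels of the iTreg and Th2 arrays differed at least 2-fold for 11 of 10538 genes (0.104%), and their levels correlated across genes with r = 0.998. These errors leave out the spread between cultures. Both arrays lay on 1 slide, so array position and culture cannot be told apart. In RNA of whole cultures, fewer cells of a type and less RNA per cell cannot be told apart either.

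Of the 10538 measured genes, 724 (6.87%) were higher in iTreg and 705 (6.69%) were lower. With each array centred on its median in place of loess, these counts were 240 and 2829, and the median difference of all genes was then -0.59. Counted from that median they were 725 and 868. Differences ran from -4.48 to 6.88 with an SD of 0.73, and 38 genes (0.361%) were past log2 3 upward against 16 (0.152%) downward. Among the 444 genes compared by Cy5 alone, 14 (3.15%) were higher and 93 (20.9%) lower. By bounds, 109 (8.16%) of 1335 genes were higher past 2-fold and 180 (13.5%) lower, 289 (21.6%) in all.

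Most genes higher in iTreg stood low in Th2, and most genes lower in iTreg stood high in Th2. The comparisons with naive cells share that kind of RNA and are given side by side as values only. Of the measured genes, 1086 (10.3%) were at least 2-fold above naive and 881 (8.36%) below it in iTreg, against 1567 (14.9%) and 1575 (14.9%) in Th2. Of the 724 genes higher in iTreg, 180 were at least 2-fold above naive, 454 were within 2-fold and 90 were below it on the iTreg array. On the Th2 array the same genes numbered 30 above, 256 within and 438 below, with a median log2 ratio of 0.14 in iTreg and -1.21 in Th2. Of the 705 genes lower in iTreg, 178 were above naive, 461 within 2-fold and 66 below in iTreg. In Th2 542 of them were above naive, 151 within and 12 below, and the median was 0.34 in iTreg against 1.82 in Th2. The side of naive on which a gene stands depends on the loess, and the Cy5 and Cy3 dyes were not swapped. A dye effect of a single probe cancels in the difference between the arrays.

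**Figure D1:**
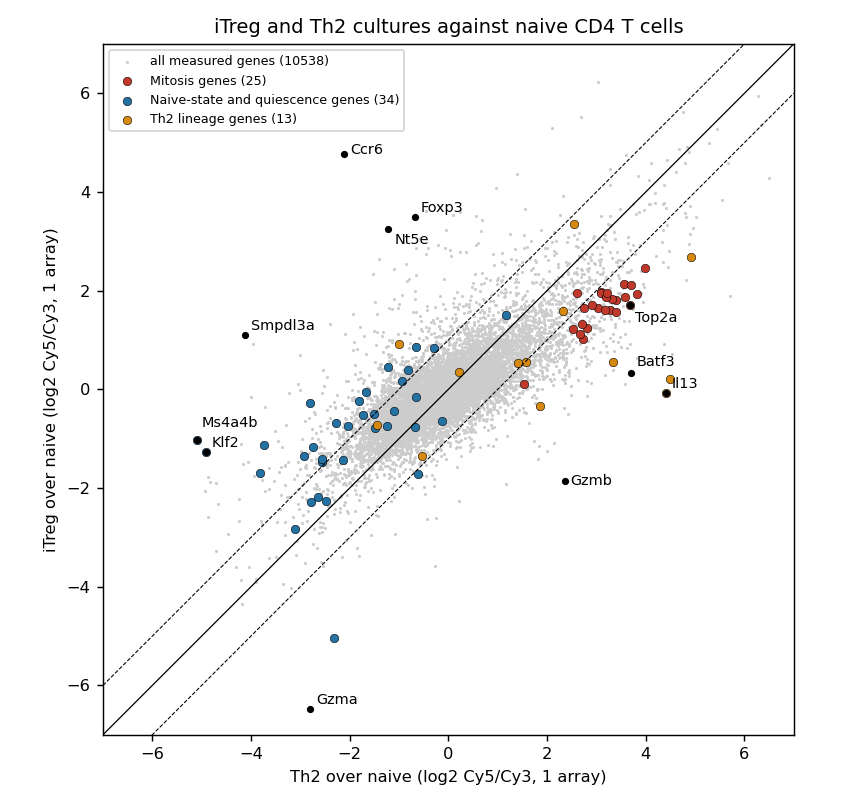
Each point is 1 of 10538 measured genes, with its log2 (Cy5/Cy3) on the Th2 array (horizontal) and on the iTreg array (vertical); the solid line marks equal values and the dashed lines a 2-fold difference. Mitosis genes (red) lie below the diagonal at high Th2 values, naive-state genes (blue) lie mostly above it at low values, and Ccr6, Nt5e and Foxp3 stand above naive in iTreg and below it in Th2.

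The largest measured difference belonged to Ccr6, which encodes the receptor for the chemokine CCL20. Its log2 ratio to naive was 4.78 in iTreg, 1.64 in Th9 and -2.11 in Th2, and its raw spot signals in Cy5 were 25649 in iTreg and 124 in Th2 over a background near 49.5. The difference was 6.88 ± 0.64 (118-fold). Foxp3 stood at 3.49 in iTreg, 1.28 in Th9 and -0.68 in Th2, a difference of 4.16 ± 0.46 (17.9-fold). Nt5e, which encodes the AMP-hydrolysing ectoenzyme CD73, stood at 3.24 in iTreg, 2.50 in Th9 and -1.22 in Th2, a difference of 4.46 ± 0.45. For these 3 genes iTreg was highest, Th9 lay between and Th2 was below naive.

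The largest negative difference belonged to Il13, the Th2 cytokine gene, with -4.48 ± 0.63 (22.4-fold). It stood at -0.07 in iTreg, 1.26 in Th9 and 4.41 in Th2. Its signal of 124 in iTreg was close to the naive signals of 114 on that array and 126 on the Th2 array, so its level there lay near the detection limit. Il4 was not well above background in iTreg, with raw Cy5 signals of 60.3 in iTreg and 6467 in Th2, and was at least 67.3-fold lower in iTreg. Il5 was compared by Cy5 alone (signals 98.5 in iTreg and 689 in Th2) and was lower by -2.60 ± 0.35 log2 units. All 3 cytokine genes of this locus were thus near or at background in iTreg.

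The 300-base windows around the starts of these genes are shown because the media differ in ligands that act through STAT and SMAD proteins. They come from RefSeq (GRCm38.p6) and run from 250 bases before the start to 50 after it. Capitals mark matches on either strand to TTCNNNGAA (the spacing bound by most STATs), to the same palindrome with 1 more base between its arms (a spacing favoured by STAT6) or to CAGACA (a SMAD-binding sequence).
Foxp3, chrX:7580233-7580532, plus strand: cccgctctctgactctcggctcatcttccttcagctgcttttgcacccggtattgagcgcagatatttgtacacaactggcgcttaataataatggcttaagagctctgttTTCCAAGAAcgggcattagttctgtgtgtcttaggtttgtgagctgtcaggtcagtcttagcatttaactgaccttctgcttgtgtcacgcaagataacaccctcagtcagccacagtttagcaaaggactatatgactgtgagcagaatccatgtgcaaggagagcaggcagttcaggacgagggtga
Ccr6, chr17:8235793-8236092, plus strand: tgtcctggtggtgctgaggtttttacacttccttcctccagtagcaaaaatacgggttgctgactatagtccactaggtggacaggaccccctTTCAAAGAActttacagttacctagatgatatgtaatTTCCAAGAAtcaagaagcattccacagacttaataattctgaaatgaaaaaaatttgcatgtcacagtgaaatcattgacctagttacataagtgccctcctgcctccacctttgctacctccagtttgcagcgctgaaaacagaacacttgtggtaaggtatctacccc
Nt5e, chr9:88327359-88327658, plus strand: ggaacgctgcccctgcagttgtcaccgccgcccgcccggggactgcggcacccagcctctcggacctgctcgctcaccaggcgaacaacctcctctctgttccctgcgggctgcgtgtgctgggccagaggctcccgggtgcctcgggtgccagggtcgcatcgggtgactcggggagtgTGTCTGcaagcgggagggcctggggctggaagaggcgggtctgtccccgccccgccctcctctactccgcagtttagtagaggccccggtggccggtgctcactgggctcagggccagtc
Il4, chr11:53618616-53618915, minus strand: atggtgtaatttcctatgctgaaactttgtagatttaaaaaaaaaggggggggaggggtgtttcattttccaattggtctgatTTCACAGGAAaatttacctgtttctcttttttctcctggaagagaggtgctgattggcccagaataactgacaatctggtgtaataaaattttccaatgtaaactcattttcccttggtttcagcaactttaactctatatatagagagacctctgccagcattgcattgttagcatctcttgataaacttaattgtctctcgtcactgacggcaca
Il13, chr11:53634653-53634952, minus strand: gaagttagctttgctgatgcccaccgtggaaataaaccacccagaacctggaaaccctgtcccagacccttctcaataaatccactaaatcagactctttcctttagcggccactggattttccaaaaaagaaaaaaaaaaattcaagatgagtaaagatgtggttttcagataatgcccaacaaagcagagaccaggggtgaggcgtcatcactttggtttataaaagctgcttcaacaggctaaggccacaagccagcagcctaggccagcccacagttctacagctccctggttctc
The window of Ccr6 holds 2 TTCNNNGAA matches and that of Foxp3 1. The Nt5e window has 1 match to CAGACA, read on the opposite strand, and the Il4 window 1 match to the wider palindrome. The Il13 window has none of these letters. RefSeq lists a second start for Foxp3, Ccr6 and Il4. The other windows of Foxp3 and Ccr6 hold no match and that of Il4 holds 1 TTCNNNGAA. Such matches are common: of 32851 RefSeq windows 8.3% hold TTCNNNGAA, 6.95% the wider palindrome and 21.0% CAGACA. Among the 595 genes higher in iTreg that had a window, the shares in the same order were 10.4%, 5.71% and 20.5%. Among 563 genes lower in iTreg they were 9.06%, 7.64% and 17.4%, and among all 8510 measured genes with a window 8.52%, 6.53% and 18.7%. A match describes letters only and is not a measured binding site.

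Among 20 measured Treg lineage genes, 5 were higher in iTreg and 4 lower, beside 6.87% and 6.69% of all measured genes. Besides Foxp3 and Nt5e, Ikzf2, which encodes the transcription factor Helios, was higher, with a log2 ratio of 1.08 in iTreg and -1.35 in Th2 (difference 2.43 ± 0.34). Il2ra, the high-affinity chain of the IL-2 receptor, stood at 3.91 in iTreg, 2.56 in Th9 and 2.33 in Th2 (difference 1.58 ± 0.54). Ikzf4, a transcription factor related to Helios, was higher by 1.36 ± 0.46 by the probe used and by 0.32 by the lowest of its 3 measured probes. Nrp1, a semaphorin co-receptor of many thymic Treg cells, was above background in iTreg only and at least 4.99-fold higher.

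Many other genes of the Treg list were high in both cultures or higher in Th2. Ctla4, the inhibitory receptor that competes for B7 ligands, stood at 3.52 in iTreg and 3.28 in Th2, a difference of 0.24 ± 0.57. The TNF receptor genes Tnfrsf18 (GITR), Tnfrsf4 (OX40) and Tnfrsf9 (4-1BB) differed by -0.95, -0.73 and -0.41, each within 2-fold. The lower members were Cd83 (-1.97), Lag3 (-1.52), Socs2 (-1.06) and Tigit (-1.02), of which Lag3 and Tigit encode inhibitory receptors. The inhibitory cytokine gene Il10 was not above background in iTreg, and Entpd1 and Gpr83 were not compared. The list's median difference was 0.11, which became -0.40 with median centring and 0.19 when counted from the all-gene median there. On the iTreg and Th2 arrays the medians against naive were 2.34 and 2.23.

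Of 13 measured Th2 lineage genes, 6 were lower in iTreg, 1 was higher and the median difference was -0.88. Plcd1, a phospholipase C, had the next lowest difference after Il13, with log2 ratios of 0.20 in iTreg, 4.28 in Th9 and 4.49 in Th2 (-4.29 ± 0.60). Pparg, a nuclear receptor that supports Th2 cytokine production, stood at 0.55 in iTreg and 3.34 in Th2 (-2.80 ± 0.50). Nfil3, a basic leucine zipper factor, was above naive on both arrays, at 2.68 in iTreg and 4.92 in Th2 (-2.24 ± 0.63). Ecm1, which promotes the exit of Th2 cells from lymph nodes, was lower by -2.20 ± 0.34. Rnf128, the anergy-related ubiquitin ligase GRAIL, was lower by just over 2-fold.

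Gata3, the master regulator of the Th2 lineage, did not reach 2-fold. It stood at 0.53 in iTreg, 1.01 in Th9 and 1.40 in Th2, a difference of -0.88 ± 0.32. Its own difference was thus far smaller than those of the cytokine genes. The exception in direction was Maf, a factor that activates Il4 and also Il10 and Il21. It stood at 0.93 in iTreg, 0.72 in Th9 and -0.99 in Th2 and was higher by 1.92 ± 0.34. The IL-4 receptor gene Il4ra (-0.82) and the receptor genes Ccr4 (-0.73), Il1rl1 (0.72) and Ccr8 (0.82) stayed within 2-fold, and Il24 was at least 3.28-fold lower.

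**Figure D2:**
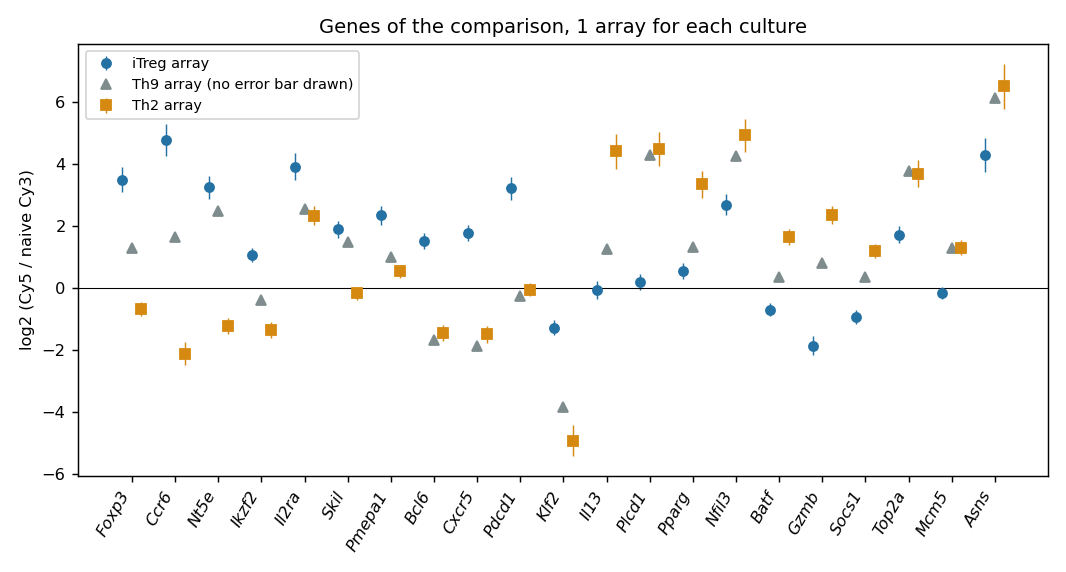
Log2 (Cy5/Cy3) of 21 genes on the iTreg (circles), Th9 (triangles) and Th2 (squares) arrays, 1 array each; bars are the scanner software's error for that spot, not a spread between cultures. Foxp3, Ccr6 and Nt5e run from high in iTreg through Th9 to below naive in Th2, while Plcd1 and Nfil3 are nearly as high in Th9 as in Th2.

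TGF-beta response genes did not move one way: of 21 measured, 6 were higher in iTreg and 6 lower, with a median of -0.04. The higher members were mostly feedback regulators of the pathway. Skil, a repressor of SMAD complexes, stood at 1.90 in iTreg, 1.49 in Th9 and -0.16 in Th2 (2.07 ± 0.34). Pmepa1, which sequesters receptor-activated SMADs, stood at 2.35 in iTreg, 1.02 in Th9 and 0.55 in Th2 (1.80 ± 0.38), and Ldlrad4, a relative of it, was at least 7.48-fold higher. The SMAD corepressor gene Tgif1 was higher by 1.23 and the type I receptor gene Tgfbr1 by 1.19 (0.57 by its other probe, within 2-fold).

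Smad7, the inhibitory SMAD, was higher than in Th2 by 1.65 ± 0.35 but lay at -0.38 against naive in iTreg and -2.03 in Th2. Tgfbr2, the type II receptor gene, was higher by 1.78 by the probe used and stood at -0.44 by its other probe. The lower members were Id2 (-2.48), Id1 (-2.31), Tgfb3 (-1.82), Gadd45b (-1.52), Cdkn1a (-1.51) and Tgfbr3 (-1.07). Id1 and Id2 encode inhibitors of basic helix-loop-helix factors, and Cdkn1a encodes the cell-cycle inhibitor p21. The naive channel of Cdkn1a itself differed between the arrays, with signals of 89.6 on the iTreg array and 244 on the Th2 array.

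IL-4 and STAT6 response genes had 6 of 17 measured members lower in iTreg, 2 higher and a median of -0.82, which was -0.26 without the filter on dim probes. Tgm2, tissue transglutaminase, stood at 1.90 in iTreg, 5.20 in Th9 and 5.71 in Th2 (-3.81 ± 0.70, and -2.80 by its other probe). Batf, an AP-1 factor that cooperates with IRF4, stood at -0.69 in iTreg and 1.64 in Th2 (-2.33 ± 0.34). The cytokine-signalling inhibitor genes Socs1 and Cish were lower by -2.13 ± 0.32 and -1.50 ± 0.47, and Pparg and Nfil3 belong to this list too. Bcl6, a repressor that competes with STAT6 for DNA sites, was the highest member, at 1.52 in iTreg, -1.66 in Th9 and -1.45 in Th2 (2.97 ± 0.36). Mgst2, a glutathione transferase, was higher by 1.37, and Gfi1, Xbp1 and Slc39a8 differed by less than 2-fold.

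In the IL-2 and STAT5 response list 14 of 29 measured members were lower in iTreg and 1, Il2ra, was higher. Its median of -0.88 lay below the all-gene median under every processing tried, with a distance of -0.87 or more. The survival kinase genes Pim2 (-2.34 ± 0.41) and Pim1 (-1.69 ± 0.31) and the antiapoptotic gene Bcl2 (-1.68 ± 0.34) were lower, as were Socs1, Cish, Cd83 and the suppressor of cytokine signalling Socs3 (-1.65). Il2rb (-0.40) and Myc (-0.14), of the same list, stayed within 2-fold, and Bcl2l1 did so by the probe used (-0.69) but not by its other probe (-1.04). The IL-2 dose was 0.4 ng/ml in iTreg and 1 ng/ml in Th2, and its part was not tested. Il2 itself was not well above background in iTreg and was at least 4.50-fold lower there.

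Genes of cell division were lower in iTreg as a block. Of 25 measured mitosis genes 24 were at least 2-fold lower and none higher, with a median of -1.48. Both members compared by Cy5 alone and both with a bound were lower as well. Top2a, the topoisomerase that untangles replicated DNA, stood at 1.72 in iTreg, 3.76 in Th9 and 3.69 in Th2 (-1.97 ± 0.51). Tpx2, a spindle assembly factor, was lower by -1.89 and the checkpoint kinase gene Bub1 by -1.82, while the centromeric histone gene Cenpa, at -0.66, was the 1 member within 2-fold. Mitosis genes were above naive in both cultures, with medians of 1.72 in iTreg and 3.17 in Th2.

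DNA replication genes were lower to a smaller extent. Of 30 measured, 14 were at least 2-fold lower and none higher, the median was -0.95 and every member lay below 0, between -1.61 and -0.09. With median centring 27 of the 30 were at least 2-fold lower, and the list's median counted from the all-gene median was -1.06. The lowest were Rfc3, a clamp loader subunit (-1.61), Gins2 of the replicative helicase (-1.61) and Pold1, a polymerase delta subunit (-1.60). The smallest differences were those of the helicase subunit gene Mcm6 (-0.20), Prim2 of primase (-0.09) and Tyms, thymidylate synthase (-0.09). None of 28 oxidative phosphorylation genes differed 2-fold in either direction, with a range of -0.80 to 0.31. With median centring 21 of the 28 were at least 2-fold lower and their median was -1.17. That is beside 2829 of all 10538 measured genes and an all-gene median of -0.59. Counted from the all-gene median, the list's median was -0.58.

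Amino acid genes under the transcription factor ATF4 were lower too. Of 19 measured members 9 were at least 2-fold lower and none higher, with a median of -0.92, and all 4 members compared by Cy5 alone were lower. Asns, asparagine synthetase, stood at 4.28 in iTreg, 6.13 in Th9 and 6.50 in Th2 (-2.22 ± 0.92), with naive signals of 107 on the iTreg array and 161 on the Th2 array. Psat1 of serine synthesis was lower by -2.09 ± 0.41, Stc2 by -1.69 ± 0.81 and Ddit3, the stress factor CHOP, by -1.61. Cth, which makes cysteine from cystathionine, was at -3.59 ± 0.31 by Cy5 alone. With median centring 16 of the 19 were at least 2-fold lower. The list's median was then -1.72, or -1.13 counted from the all-gene median. The counts of the other metabolic lists depended on the normalisation too. Of 23 glycolysis genes 1 was higher (Pdk1, a kinase that inhibits pyruvate dehydrogenase, 1.03) and 1 lower (the glucose transporter Slc2a1, -1.06), against none and 14 with median centring. Of 25 cholesterol genes 4 were lower, among them Lss (-1.67) of sterol synthesis, and the exporter gene Abca1 was higher by 2.01. Of 18 hypoxia response genes 5 were lower and 1 higher, beside 13.6% of all measured genes either way, and of 25 MYC and ribosome genes 1, Srm (-1.25), was lower. With median centring 14 cholesterol, 9 hypoxia and 12 MYC and ribosome genes were at least 2-fold lower. That setting put 2829 of all 10538 measured genes at least 2-fold lower. Counted from the all-gene median there, the list medians were -0.60 (glycolysis), -0.47 (cholesterol), -0.41 (hypoxia) and -0.34 (MYC and ribosome).

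Genes of naive and resting T cells were higher in iTreg than in Th2. Of 34 measured naive-state and quiescence genes, 20 were higher, 2 lower and the median was 1.12 (1.03 to 1.14 above the all-gene median under every processing tried). With median centring 8 were higher and 3 lower, beside 240 and 2829 of all 10538 measured genes. The list's median was then 0.44, beside an all-gene median of -0.59. Klf2, which keeps T cells quiescent and recirculating, stood at -1.27 in iTreg, -3.83 in Th9 and -4.91 in Th2 (3.64 ± 0.56). Ms4a4b, a membrane protein of resting T cells, stood at -1.02 in iTreg and -5.10 in Th2 (4.08 ± 0.57). S1pr1, the receptor for exit from lymph nodes, was higher by 2.61 ± 0.47. These 3 genes were below naive in both cultures and less so in iTreg. The exceptions were Satb1, a chromatin organiser (-1.11), and the surface antigen gene Ly6c1 (-2.74, and 0.13 by its other probe).

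Proximal signalling genes of the T cell receptor followed with 7 of 24 higher and 1 lower. Their median was 0.65, but -0.13 with median centring, where the median of all genes was -0.59. Txk, a TEC-family kinase, was higher by 2.66 ± 0.53, the phosphatase gene Ptpn22 by 1.72 and the negative regulator Ubash3a by 1.13, and the adaptor gene Grap2 was lower by -1.01. Of 18 AP-1, EGR and NR4A genes 3 were higher (Jun, Egr2 and Jund, by 1.34, 1.13 and 1.00), while 2 of the 3 members compared by Cy5 alone were lower, among them Atf3 (-4.58 ± 0.26).

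Follicular helper genes had 7 of 11 members higher, 2 lower and a median of 1.82. Pdcd1, the inhibitory receptor PD-1, stood at 3.22 in iTreg, -0.25 in Th9 and -0.05 in Th2 (3.28 ± 0.43). Cxcr5, the follicle-homing receptor, stood at 1.78 in iTreg, -1.87 in Th9 and -1.49 in Th2 (3.27 ± 0.39), and Bcl6 belongs to this list too. The lower members were Btla (-1.76) and Cd200 (-1.42), both of inhibitory receptor pathways, and Il21, the cytokine of this lineage, was at least 21.1-fold lower in iTreg. For Pdcd1 and Cxcr5 the Th9 value stood close to that of Th2.

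Among chemokine receptors 5 of 9 measured were higher and none lower, beside 6.87% and 6.69% of all measured genes. Of 17 on the array 6 were not compared. With median centring 4 were higher and 1 lower. The list's median lay 1.51 above the all-gene median, but 0.02 above it without the filter on dim probes. Beside Ccr6 and Cxcr5, Cxcr6, the receptor for CXCL16, stood at 0.69 in iTreg and -3.01 in Th2 (3.70 ± 0.47), and Cxcr3, a receptor linked to Th1 cells, was higher by 2.04. Of 16 integrin and adhesion genes 3 were higher, among them Itga4 at 2.19 and Itga6 at 1.59, and none was lower. In the Th17-associated list 5 of 12 were higher and 3 lower. Il17a, the cytokine of this lineage, was compared by Cy5 alone and differed by -0.19. Of 14 Th1 genes 3 were higher, among them the interferon gamma receptor gene Ifngr1 (2.37), and 4 lower, among them the IL-12 receptor gene Il12rb1 (-2.78 ± 0.46) and Ifng (-1.14). Among 13 Th9 genes 3 were higher and 2 lower.

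Of 19 measured cytokine and chemokine genes 7 were lower and 2 higher, and 7 of 12 with a bound were at least 2-fold lower. Il3, a growth factor for basophils and mast cells, stood at 0.40 in iTreg and 3.34 in Th2 (-2.94 ± 0.60), and Lta, lymphotoxin alpha, was lower by -2.01. Xcl1, a chemokine that attracts cross-presenting dendritic cells, ran the other way. Its Cy5 signals were 6396 in iTreg and 68 in Th2, at background, which made it at least 64.7-fold higher. Tnfsf10, the death ligand TRAIL, was higher by 2.71 ± 0.39 and Il16 by 1.27. Interferon-stimulated genes were divided, with 4 of 21 higher (Samd9l by 2.81) and 4 lower (Isg15 by -1.84).

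Cytotoxic granule genes had 4 of 11 members lower and 1 higher. Granzyme B, Gzmb, stood at -1.85 in iTreg, 0.82 in Th9 and 2.36 in Th2 (-4.21 ± 0.43), on opposite sides of naive. Granzyme A, Gzma, was below naive in both cultures, at -6.48 in iTreg and -2.80 in Th2 (-3.67 ± 0.75). Gzmc was at least 10.0-fold lower in iTreg. Ctsw, a protease of cytotoxic lymphocytes, was instead higher, at 1.33 in iTreg and -2.40 in Th2 (3.73 ± 0.40), and perforin, Prf1, differed by -0.44. Of 16 NK and CD8 T cell markers on the array 10 were above background in iTreg and 11 in Th2, with summed Cy5 levels of 15172 and 14203. Most of the iTreg sum came from Ctsw (8135) and Nkg7 (4337), and most of the Th2 sum from Gzma (9332), so the sums say little about the number of such cells. Cd8a, Ncr1 and Klrb1c were not above background in either culture. The naive channels of these arrays had summed levels of 83612 and 88829.

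Other cell types were checked in the same way. Of 18 myeloid and dendritic markers 12 were above background in iTreg and 8 in Th2, with summed levels of 66482 and 42792. Siglech (40688 in iTreg and 25867 in Th2) and Itgam (16753 and 7351) carried most of both sums and the difference between them. Of the 8 measured, 3 were higher (S100a9 by 2.01, Siglech by 1.03 and Itgam by 1.00), and Cd14, Lyz2 and Adgre1 were not above background in either culture. With median centring Siglech differed by -0.0001. B cell markers had summed levels of 3656 in iTreg and 3581 in Th2, and Ms4a1, Cd79a and Pax5 were not above background in either. The part of myeloid cells in any difference was not tested.

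**Figure D3:**
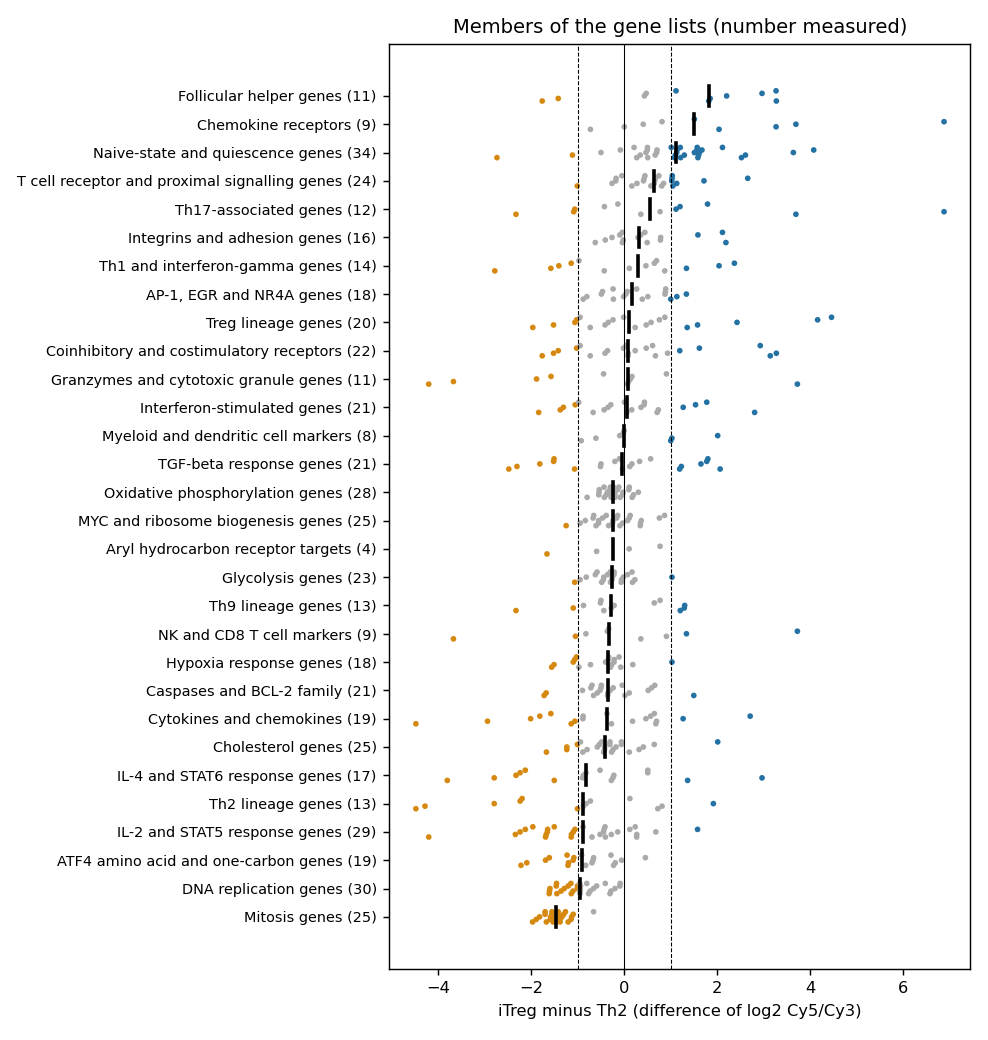
Each point is a measured member of a gene list (number measured in brackets), placed by its iTreg minus Th2 difference; blue points are at least 2-fold higher in iTreg, orange points at least 2-fold lower, and black bars are list medians. Lists run from follicular helper genes (median 1.82) to mitosis genes (median -1.48), whose members all lie below 0.

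Many of the highest and lowest differences lay outside these lists. After Ccr6, the highest were Smpdl3a, a phosphodiesterase (1.11 in iTreg, -2.59 in Th9 and -4.12 in Th2, difference 5.23 ± 0.51), and Atp1b1, the beta subunit of the sodium pump (0.92, -0.53 and -3.96 in the same order, 4.88 ± 0.50). Acsbg1, an acyl-CoA synthetase, stood at 3.61 in iTreg and -0.44 in Th2 (4.06). Cd7, a T cell surface glycoprotein, was higher by 3.86 ± 0.52, standing near naive in iTreg (-0.14) and at -4.01 in Th2. Ramp1, which partners the receptor for the neuropeptide CGRP, was higher by 3.85 (1.80 by its other measured probe), while Ramp3 of the same family was lower by -3.23 ± 0.37. Endod1 (3.63) was also among the 15 highest. Apol9b (4.04) and Apol9a (3.54), closely related apolipoprotein L genes, were also among them, and whether their similar probes share signal was not tested.

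Among the 15 lowest, Lama5, a laminin chain, stood at 0.72 in iTreg and 4.52 in Th2 (-3.81 ± 0.62). The complement gene C3 was lower by -3.46 (-4.52 by its other probe), the keratin gene Krt18 by -3.46, the GTPase gene Gem by -3.39 and Ly6a, which encodes the surface antigen Sca-1, by -3.30. Adam8, a membrane protease, Kremen2, a receptor for WNT inhibitors, and Fcmr, the receptor for IgM, were lower by -3.24, -3.24 and -3.19. Gem, Lama5 and C3 were also more than 2-fold above naive in Th9, at 3.02, 4.23 and 3.19. Adam8 and Kremen2 were not, at -0.86 and -0.08.

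Among genes whose naive channel was at background, more were lower in iTreg than higher. Serpinf1, which encodes the antiangiogenic factor PEDF, had Cy5 signals of 135 in iTreg and 12838 in Th2 (-6.23 ± 0.24). Atf3, a stress-induced factor (-4.58), Mgll, monoacylglycerol lipase (-4.37), Gstt1, a glutathione transferase (-4.21), the growth factor gene Pdgfa (-3.81) and Gatm of creatine synthesis (-3.61) followed. On the Th2 array the naive channels of Atf3, Mgll and Gstt1 were above background. Naive signals on the iTreg and Th2 arrays were 76 and 244 for Serpinf1 and 57 and 156 for Atf3, so their naive channels differed too. The highest were Tff1, a trefoil peptide (3.31 ± 0.27), and Pla1a, a phospholipase (3.23 ± 0.35). By bounds, Timd2, which encodes the receptor TIM-2, was at least 92.8-fold lower in iTreg, with signals of 62 in iTreg and 9223 in Th2, and the inhibitory receptor gene Lilrb4a at least 33.0-fold lower. Dkk3, a secreted protein related to WNT inhibitors, was at least 20.1-fold higher, the IL-18 receptor gene Il18r1 at least 16.6-fold and the fractalkine receptor gene Cx3cr1 at least 13.7-fold. A further 4159 measured probes had no matched gene name, and 304 of them were higher and 198 lower (12.1% in all).

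For some of these genes the naive channel moved with the Cy5 channel of its array. Of 10982 genes with both Cy5 channels above background, 17 had naive levels that differed at least 2-fold between the iTreg and Th2 arrays, and in all 17 the Cy5 difference had the same sign. Batf3, an AP-1 factor, had naive signals of 79 on the iTreg array and 532 on the Th2 array, beside Cy5 signals of 124 in iTreg and 9543 in Th2. Its difference was -3.36 ± 0.58 by the ratios and -5.91 by Cy5 alone. Apol9b was at 4.04 by the ratios and 5.67 by Cy5 alone, and Tgm2 at -3.81 and -4.95. For these 3 genes the ratio gave the smaller difference. Of 54 measured genes past log2 3, the naive channels differed in the same direction as the cultures in 50. This counts signs alone, and some of these naive differences were small, such as 0.03 for Smpdl3a and for Klf2. The share of same signs over all measured genes was not counted. Neither the count for the 17 genes nor that for the 54 can thus be called particular to them. The cause was not tested.

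**Figure D4:**
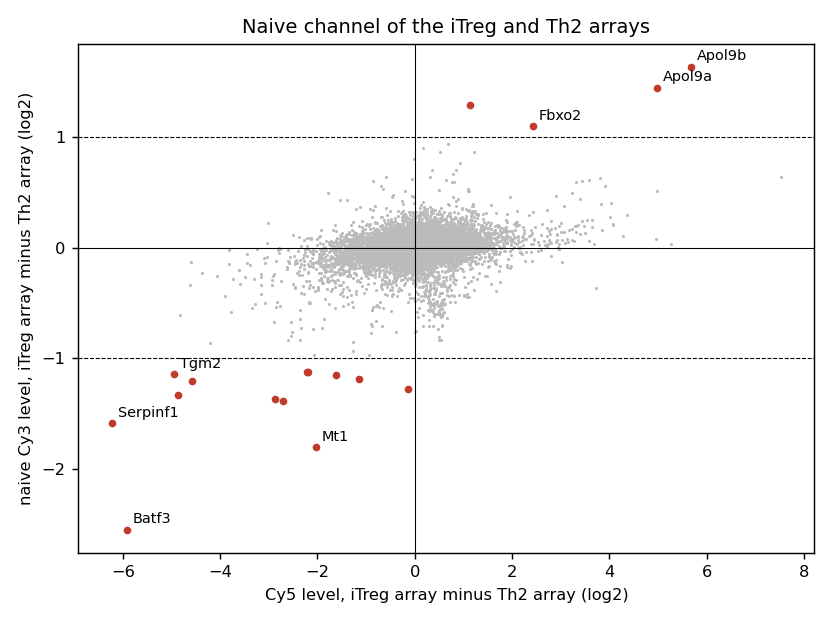
Difference between the iTreg and Th2 arrays in the Cy5 level (horizontal) and in the naive Cy3 level (vertical), in log2 units, for 10982 genes with both Cy5 channels above background; red points are the 17 genes whose naive level differed at least 2-fold. The red points lie in the upper right and lower left, where both channels differ the same way.

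Differences also depended on how bright a gene was in naive cells. In 4 bins of equal size by the naive level, from dim to bright, 94, 179, 195 and 256 genes were higher and 276, 194, 154 and 81 were lower. The median difference ran -0.09, -0.03, 0.02 and 0.10 after loess and -0.37, -0.57, -0.66 and -0.77 with median centring. Of the 136 named genes at least 2-fold different, 135 kept their direction under median centring, all but Siglech, and 117 stayed at least 2-fold different. Many of them were named for the size of their difference, so these counts do not stand for all genes. Of all 724 genes higher in iTreg 240 stayed higher. All 705 lower genes stayed lower, in the direction in which centring moved the all-gene median.

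**Figure D5:**
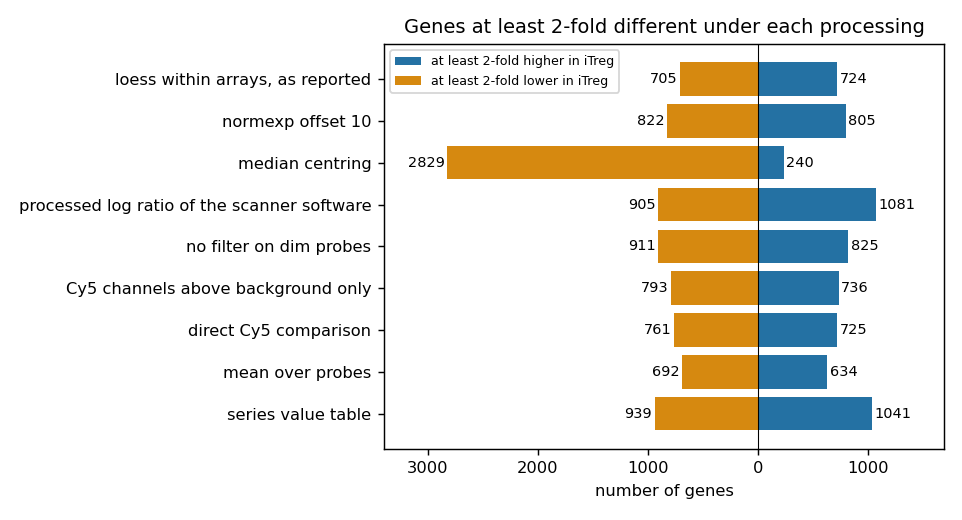
Number of genes at least 2-fold higher (right, blue) or lower (left, orange) in iTreg under each way of processing the arrays. Median centring gives 240 and 2829, and the other settings give 634 to 1081 higher and 692 to 939 lower.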

How the data were processed

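RNA of 3 cultures was measured against naive RNA on 2-colour Agilent arrays, 1 array per culture, and the iTreg and Th2 arrays were compared. The deposited scanner files hold, for each dye, the median intensity of a spot and of its background; per the file headers the software was Agilent Feature Extraction 11.0.1.1, whereas version 9.3.2.1 is named in the submitters' processing notes. They also hold, per the file headers, background-subtracted and dye-normalised signals, the log10 ratio (Cy5/Cy3) and its error, and a p-value for error within 1 array, which was not used. The deposited series values equal the log2 ratio of those processed signals, with an offset for each array (0.037 for iTreg, 0.021 for Th9, 0.056 for Th2), within 0.001 for over 99.3% of probes on each. Their column medians are 0.28, 0.26 and 0.14 in that order, so they were not centred.

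Intensities were corrected by normexp (offset 50), and log2 ratios were loess-normalised array by array (limma 3.58.1, R 4.3.3, jsonlite 2.0.0 and the package data.table, version 1.17.8), with control and outlier spots at weight 0. Spots of a probe were averaged. For direct Cy5 comparisons channels were scaled by Aquantile. A bound uses, per array, the higher of the lowest signal among probes well above background and the dim probe's own. Further steps used Python 3.11.15, pandas 2.3.3, numpy 2.4.6 and matplotlib 3.10.9. Probes were matched by RefSeq accession without version to GRCm38.p6 (26055 of 39429, 66.1%), and a gene takes its brightest probe. The array's own build was not used for positions. The size rule was checked on simulated data.

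The genes compared and the 32 gene lists were chosen with earlier results of these data known. Named genes are the 3 markers, the 15 highest and 15 lowest differences, 8 each way by Cy5 alone and by bounds, members of the Treg, Th2, TGF-beta, IL-4 and IL-2 lists, and up to 3 highest and 3 lowest members of each other list. Il17a, Il2, Gzmc, the cell type markers at background and the genes named from the naive channel were chosen after their values were seen. Some genes are not reported here. The number of arrays limits the precision. Alternatives tried were another offset, median centring, the processed signals, no filter on dim probes, a filter on Cy5 only, direct Cy5 comparison, the mean over probes and the deposited series values.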

Additional observations from a re-analysis of the deposited data

Results flagged for a closer look

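Of 10538 measured genes, 31 stood at least 2-fold above naive in one culture and at least 2-fold below it in the other. Of these, 24 were above naive in iTreg and below it in Th2. Each such gene was picked by a 2-fold cut on 1 ratio per culture, with no replicate behind either ratio. The difference between the cultures was not tested. Among the named genes, the differences (iTreg minus Th2) were 6.88 for Ccr6, 5.23 for Smpdl3a, 4.46 for Nt5e, 4.04 for Apol9b, 3.85 for Ramp1, 3.73 for Ctsw and 3.54 for Apol9a. They were 3.27 for Cxcr5, 2.97 for Bcl6, 2.93 for Tnfrsf1b, which encodes the TNF receptor TNFR2 (1.83 in iTreg, -1.10 in Th2), and 2.43 for Ikzf2. In the opposite direction they were -4.21 for Gzmb, -3.24 for Adam8, -3.24 for Kremen2 and -3.23 for Ramp3. Foxp3, at -0.68 in Th2, is not in this set because its Th2 value was within 2-fold of naive.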

How the results depend on the processing

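Among the markers, the 5 lists with a fixed median and the gene counts, no value changed sign under any alternative except the Treg list. Median centring gave 240 genes higher and 2829 lower, 3.69 for Foxp3, and list medians of -0.40 (Treg), -1.49 (Th2), -0.52 (TGF-beta), -1.49 (IL-4 and STAT6) and -1.57 (IL-2 and STAT5). The median over all genes was then -0.59, with a larger shift for genes bright in naive cells. The processed signals gave 4.73 for Foxp3, 8.32 for Ccr6 and -5.56 for Il13, and the series table, built from the same signals, 4.71, 8.30 and -5.58. Without the filter on dim probes the IL-4 list's median was -0.26, with more members entering. The cause of the larger values from processed signals was not tested. Of the 724 genes higher in iTreg, 240 stayed higher with centring, and all 705 lower genes stayed lower. No paired analysis was possible because each culture had 1 replicate, so no replicate could be left out either, and a slide block could not be run since all arrays lay on 1 slide. Genes dim in naive cells, such as Il13, Asns and Batf3, have ratios limited by the naive signal over background.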

Other observations

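Receptors of the TNF and immunoglobulin families differed in both directions. Of 22 measured coinhibitory and costimulatory receptors 5 were higher in iTreg and 4 lower, beside 6.87% and 6.69% of all measured genes. Their median was 0.09 (-0.43 with median centring). Cd96, a receptor for nectin-family ligands, stood at 0.11 in iTreg, -2.10 in Th9 and -3.04 in Th2 (3.14 ± 0.42), and Tnfrsf1b at 1.83, 0.03 and -1.10 in the same order (2.93 ± 0.37). Of 21 measured caspase and BCL-2 family genes 1 was higher, the proapoptotic gene Bmf (1.50 ± 0.44), and 2 were lower, the inflammatory caspase gene Casp4 (-1.72 ± 0.34) and Bcl2. These counts lie near the shares over all measured genes, 6.87% higher and 6.69% lower. With median centring 1 was higher and 10 were lower, beside 240 and 2829 of all 10538 measured genes. Casp4 stood at 0.22 in iTreg, -1.04 in Th9 and 1.95 in Th2, so its level in Th9 was the lowest. Tiparp, a target of the aryl hydrocarbon receptor, was the 1 lower gene among 4 measured targets (-1.66 ± 0.31).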
